A study of Mus musculus with 2 samples.

Results

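The 10 genes described here encode the TGF-beta ligands (Tgfb1, Tgfb2 and Tgfb3), their receptors (Tgfbr1, Tgfbr2 and Tgfbr3), 3 latent TGF-beta binding proteins (Ltbp1, Ltbp3 and Ltbp4) and the matrix protein TGF-beta-induced (Tgfbi). They were chosen by name, from 27998 genes in the count tables, with no measured value in the rule but with earlier results of these data known. All 10 had counts at both days, and their counts were summed over the cells of each deposited cell type label at each day.

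Tibialis anterior muscle of C57Bl/6 mice (C57BL/6J in the cell annotation) was injured with notexin, a snake venom phospholipase that destroys myofibres, and was dissociated for single-cell RNA sequencing at day 2 or day 7. Each day is 1 library, from 1 mouse according to the cell annotation, and no uninjured muscle was analysed here. No difference between the days was therefore tested, and day cannot be told apart from mouse, library or preparation. The labels give females of 7 months at both days, whereas the annotation gives males of 4 months at day 2 and 7 months at day 7. Counts of 4 Y-linked genes (6575 at day 2 and 4856 at day 7) against 5 and 1 counts of Xist went against the label of female.

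TGF-beta is secreted as an inactive complex, in which the mature dimer stays bound to its propeptide and, through it, to a latent TGF-beta binding protein that anchors the complex in the matrix. Integrins and proteases release the ligand, which joins the type II receptor TGFBR2 with the type I receptor TGFBR1 and leads to phosphorylation of SMAD2 and SMAD3. In injured muscle this pathway is known for its action on matrix production by fibro-adipogenic progenitors (FAPs), on macrophages and on the differentiation of muscle stem cells (MuSCs).

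After limits on cell quality, 3178 labelled cells at day 2 and 3196 at day 7 remained, with 34026345 and 27620535 unique molecular identifier (UMI) counts and medians of 9058.5 and 6583 counts per cell. Only 1 cell barcode was shared by the kept cells of both libraries. Levels are in CPM, the counts of a gene over all counts of the same cells, scaled to 1000000, with exact 95% Poisson intervals in parentheses. Intervals here cover counting error alone, not the spread between mice. UMIs were counted at transcript 3′ ends and do not scale with transcript length, so levels of different genes are set side by side on this per-molecule scale. The 25 labels were gathered into 12 classes, and 6 classes held at least 50 kept cells at each day. FAPs made up 6.77% of the kept cells at day 2 and 25.2% at day 7, monocytes and macrophages 40.7% and 23.7%.

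Some labels held counts of markers of other cells. Of the cells labelled Smooth Muscle, 287 of 304 at day 2 and 196 of 232 at day 7 held at least 3 counts of the 5 endothelial markers. These markers summed to 3433 CPM at day 2 and 5843 CPM at day 7 in that class, above the 2081 and 4149 CPM of its own 5 markers, so the name smooth muscle and pericytes stands here for the deposited label only. Of 50 cells labelled T Cells at day 2, 17 held at least 3 counts of basophil and mast cell markers. T and NK cells also held 769 and 970 CPM of the endothelial markers, from at least 3 counts in 10 of the 50 T Cells at day 2 and 24 of 293 at day 7, against 201 and 743 CPM of T cell and 1017 and 1659 CPM of NK cell markers. Cells labelled Tenocytes at day 7 held 29340 CPM of the 5 FAP markers, of which Col1a1 was 18935 CPM, and 15361 CPM of the 4 tenocyte markers, against 44887 and 1113 CPM in FAPs. Cells labelled B Cells at day 2 held 3837 CPM of the 5 neutrophil markers, against 3324 CPM of their own 4 markers. They also held 1068 CPM of the endothelial markers. Only 5 of 21 cells labelled MuSCs at day 2 held at least 3 counts of myogenic markers, and 1 of the 10 labelled Neutrophils at day 7 held as many neutrophil marker counts. The class of these MuSCs, 22 cells at day 2, held 22299 CPM of the 3 erythroid markers, against 1125 CPM of its own 5 markers. Members are given with these cells counted and, for smooth muscle and for T and NK cells, also without them, an alternative chosen after seeing the data. Monocytes and macrophages held 4374 CPM of the 4 platelet markers at day 2 and 354 CPM at day 7, of which Pf4 was 4258 and 353 CPM and Gp9 was at 0. Their 5 dendritic cell markers summed to 625 and 7748 CPM, of which H2-Ab1 was 620 and 7740 CPM, against 2428 and 7450 CPM for the 5 markers of their own class. The part of these markers in the results of that class was not tested. In cells labelled Dendritic, Xcr1 was at 6.98 CPM at day 2 and 93.3 CPM at day 7, and Flt3 at 79.6 and 241 CPM. The other 3 of the 5 dendritic cell markers were Ccr7 (207 and 141 CPM), Cd209a (394 and 414 CPM) and H2-Ab1 (9532 and 9630 CPM). The part of this make-up in the results of dendritic cells was not tested. Free RNA, taken from barcodes with 1 to 100 counts, held all 10 genes.

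Over all kept cells, Ltbp3, which encodes a latent TGF-beta binding protein, was at 6.85 CPM (6.00 to 7.79) at day 2 and 86.9 CPM (83.5 to 90.5) at day 7, 12.7-fold higher at day 7. Tgfb3 was 7.83-fold higher at day 7 (136 against 864 counts), Ltbp4 5.09-fold (52.5 against 267 CPM) and Tgfb2 4.95-fold (12.4 against 61.2 CPM). Ltbp1 was at 9.46 CPM and 33.5 CPM, a ratio of 3.54. The 3 genes of the matrix-binding latency proteins and the ligands Tgfb2 and Tgfb3 were thus the members with the largest ratios in the direction of day 7. The receptors stood closer to 1, with ratios of 1.96 for Tgfbr2 (76.0 and 149 CPM), 1.84 for Tgfbr3 (39.3 and 72.4 CPM) and 1.26 for Tgfbr1 (53.8 and 67.5 CPM). Tgfb1 was at 181 CPM (177 to 186) and 186 CPM (181 to 191). Its log2 ratio of day 7 to day 2 was 0.04, with an interval that held 0 (-0.02 to 0.09). Tgfbi was the sole member lower at day 7, at 1045 CPM (1034 to 1056) against 243 CPM (237 to 248), 4.31-fold higher at day 2. The level in free RNA moved the same way, from 5.24 to 70.9 CPM for Ltbp3, from 23.3 to 209 CPM for Ltbp4 and from 382 to 148 CPM for Tgfbi.

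The windows around the annotated starts of 4 members are printed because these genes stood at different ends of that order: Tgfb1 with a level that differed little, Tgfb2 and Ltbp3 with higher levels at day 7, and Tgfbi with a lower one. Windows run from 250 bases before to 50 bases after a RefSeq start (GRCm38.p6) and are on the strand of the gene. Capitals mark 3 motifs searched on both strands. The first is the SMAD-type motif CAGAC, which is read on the other strand as GTCTG. The AP-1-type motif searched was TGANTCA. The TATA-type motif was TATAAA. They occur in 49.6%, 7.81% and 13.6% of 32851 mouse windows. Tgfb1 is at chr7:25686752-25687051 on the plus strand, Tgfb2 at chr1:186705940-186706239 on the minus strand, Tgfbi at chr13:56609336-56609635 on the plus strand and Ltbp3 at chr19:5740650-5740949 on the plus strand.
Tgfb1: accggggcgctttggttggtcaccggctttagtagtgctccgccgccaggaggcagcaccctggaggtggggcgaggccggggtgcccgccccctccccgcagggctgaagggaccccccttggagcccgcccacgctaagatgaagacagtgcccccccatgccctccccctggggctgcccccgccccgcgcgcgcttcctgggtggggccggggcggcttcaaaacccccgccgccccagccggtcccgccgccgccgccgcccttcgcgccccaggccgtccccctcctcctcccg
Tgfb2: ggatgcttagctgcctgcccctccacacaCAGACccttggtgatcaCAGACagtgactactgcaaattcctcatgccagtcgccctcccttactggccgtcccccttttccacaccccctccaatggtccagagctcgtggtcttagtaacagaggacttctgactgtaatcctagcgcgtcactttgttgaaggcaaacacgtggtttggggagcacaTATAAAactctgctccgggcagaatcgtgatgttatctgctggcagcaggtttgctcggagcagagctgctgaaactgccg
Tgfbi: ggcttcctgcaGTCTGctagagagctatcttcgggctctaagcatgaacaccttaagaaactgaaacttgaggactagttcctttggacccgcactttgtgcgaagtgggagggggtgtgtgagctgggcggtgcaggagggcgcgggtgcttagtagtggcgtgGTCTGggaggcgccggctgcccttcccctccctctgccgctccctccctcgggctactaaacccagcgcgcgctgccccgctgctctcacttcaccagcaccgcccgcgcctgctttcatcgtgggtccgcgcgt
Ltbp3: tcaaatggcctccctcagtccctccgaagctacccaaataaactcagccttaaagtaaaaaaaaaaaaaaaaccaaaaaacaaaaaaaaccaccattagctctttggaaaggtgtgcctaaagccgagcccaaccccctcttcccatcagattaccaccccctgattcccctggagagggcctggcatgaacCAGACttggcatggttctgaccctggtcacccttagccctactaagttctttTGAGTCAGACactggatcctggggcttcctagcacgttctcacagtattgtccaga
The Tgfb1 window held none of the motifs and had a GC content of 77.0%, against a median of 52.7% over all windows. The Tgfb2 window held 2 CAGAC matches and a TATAAA match and had a GC content of 54.3%. The Tgfbi window held 2 CAGAC matches, both on the opposite strand, and the Ltbp3 window held 2, the second of which overlaps its TGANTCA match. Of the 10 members, 8 had a window, with 12 windows in all. Tgfb3 and Tgfbr3 had none.

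Counts of most members came largely from 1 class. Monocytes and macrophages, with 40.7% of the cells and 48.4% of all counts at day 2, held 67.5% of the Tgfb1 counts (66.3% to 68.6%) and 88.4% of the Tgfbi counts (88.1% to 88.7%). At day 7, with 23.7% of the cells, they held 56.3% and 72.9%. FAPs at day 2 held 74.6% of the Tgfb2 counts, 74.2% of the Tgfbr3 counts, 71.4% of the Ltbp1 counts and 62.7% of the Ltbp3 counts, from 15.1% of all counts. At day 7 FAPs held 60.3%, 63.9%, 56.9% and 70.8% of these, from 29.5% of all counts. For Tgfb3 the class with the largest share was smooth muscle and pericytes at day 2 (55.1%, from 75 of 136 counts) and FAPs at day 7 (62.4%, from 539 of 864 counts). For Ltbp4 it was also smooth muscle and pericytes at day 2 (49.4%) and FAPs at day 7 (52.5%). Without the cells labelled Smooth Muscle that held endothelial markers, the share of that class at day 2 was 4.69% for Tgfb3 (3 of 64 counts) and 0.768% for Ltbp4 (7 of 912 counts). Myogenic cells (satellite cells, myoblasts and their progeny) were 9.76% of the cells at day 7 and held 27.7% of the Tgfb2 counts and 26.1% of the Ltbp1 counts.

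**Figure D1:**
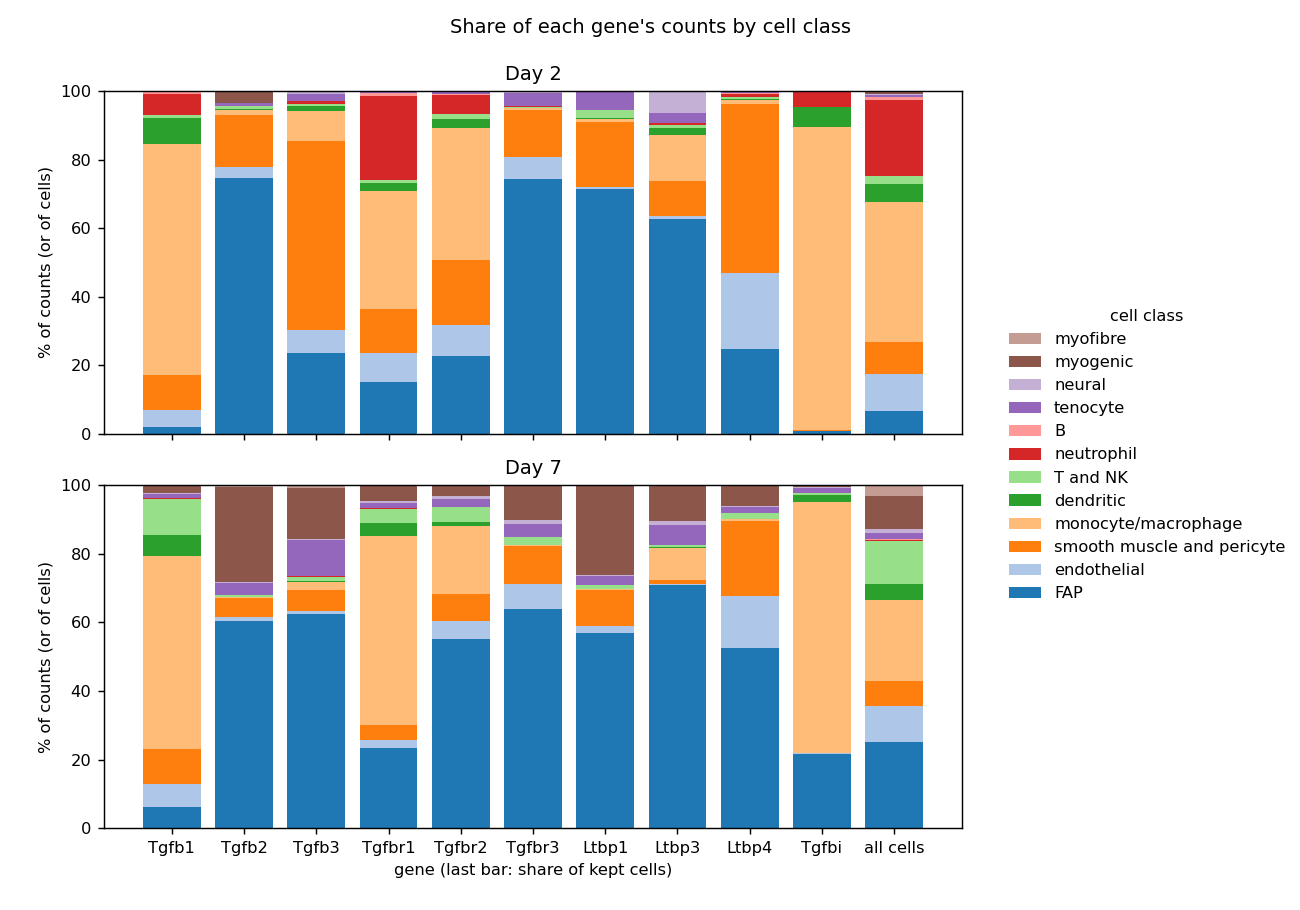
Share of each gene's counts that fell in each of the 12 cell classes at day 2 and day 7, in percent of the gene's counts over all kept cells, with the share of kept cells in the last bar. Monocytes and macrophages held 67.5% of the Tgfb1 counts at day 2 and 56.3% at day 7, and FAPs held 62.7% and 70.8% of the Ltbp3 counts.

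Among the ligands, Tgfb1 was the form of leukocytes and endothelium. Its level at day 2 was highest under the label B Cells at 383 CPM (271 to 525, 29 cells), followed by inflammatory monocytes at 327 CPM (305 to 351), and the interval of the ratio of these neighbours held 1. The label B Cells held more neutrophil than B cell marker counts at day 2, and the part of this in its level was not tested. At day 7 patrolling monocytes and Cx3cr1_hi M2 macrophages were at 409 CPM (376 to 443) and 408 CPM (373 to 445). FAPs were the lowest of the compared classes at both days, at 25.7 CPM (21.5 to 30.5) and 38.3 CPM (34.2 to 42.8), below the Tgfb1 level of free RNA (63.5 and 97.7 CPM).

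Tgfb1 was higher at day 7 in all 6 compared classes, and in none by 2-fold as a class, but smooth muscle and pericytes without the cells holding endothelial markers had a log2 ratio of -0.03 (-1.93 to 2.16). Monocytes and macrophages had 253 CPM at day 2 and 384 CPM at day 7 (log2 ratio 0.61, 0.54 to 0.67). Endothelial cells had 124 and 208 CPM, with the largest log2 ratio of the 6 (0.75, 0.52 to 0.98). T and NK cells had 187 and 254 CPM, with the smallest (0.44, 0.07 to 0.83). Without the 17 cells holding basophil and mast cell markers, the level at day 2 was 155 CPM (log2 ratio 0.71, 0.27 to 1.18). These ratios, with all cells counted, lay above 0 while that over all kept cells was 0.04. The classes held different shares of the cells at each day, and the part of this in the value over all cells was not tested. Within the labels, stem endothelial cells were at the 2-fold limit (113 and 226 CPM, log2 interval 0.58 to 1.42). The direction was not uniform: in adipogenic FAPs Tgfb1 was at 61.8 CPM (22 counts) and 26.7 CPM (44 counts) (log2 ratio -1.21, -1.98 to -0.40), and in inflammatory monocytes the interval held 0 (0.11, -0.12 to 0.34). In FAPs the log2 ratio was 0.57 (0.28 to 0.88) from summed counts and 0.25 from the mean over cells.

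Tgfb2, the ligand of stromal and myogenic cells, was near absent from myeloid cells, with 6 counts in 1292 monocytes and macrophages at day 2 and 4 counts in 757 at day 7. Pro-remodeling FAPs were at 71.3 CPM (62.7 to 80.7) and 128 CPM (119 to 137), stem FAPs at 33.1 and 117 CPM, adipogenic FAPs at 61.8 and 117 CPM. MuSCs had the highest level at day 7, 250 CPM (216 to 289), with 58.4% of 137 cells holding a count, and the interval of their ratio to the next label, tenocytes at 134 CPM, lay above 1 (1.86, 1.39 to 2.54). The 187 CPM under the label MuSCs at day 2 rested on 15 counts in 9.52% of 21 cells. The class of this label held more erythroid than myogenic marker counts at that day. Myoblasts and progenitors, seen in number at day 7 alone, were at 113 CPM (100 to 127), below MuSCs. Over the whole class, FAPs had a log2 ratio of 1.03 (0.85 to 1.22). This ratio fell under 2-fold, at 0.83, when samples were scaled by the median of gene ratios.

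Tgfb3 was the least abundant ligand at day 2, when no label with at least 20 cells exceeded 14.7 CPM (smooth muscle, 11.5 to 18.4). At day 7 cells labelled Tenocytes, which also held FAP markers, were at 201 CPM (162 to 248), 2.86-fold above the next label (2.01 to 4.09). MuSCs and pro-remodeling FAPs followed at 70.6 and 70.3 CPM, with an interval of their ratio that held 1. In FAPs the level was 6.23 CPM at day 2 and 66.1 CPM at day 7 (log2 ratio 3.41, 2.89 to 3.97), the largest of any member in that class. In smooth muscle and pericytes it was 14.7 and 19.2 CPM, with an interval that held 0 (0.39, -0.15 to 0.92). There the log2 ratio was 0.95 by the mean over cells and 1.39 without the cells holding endothelial markers (3 and 16 counts, -0.42 to 3.81).

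The ligand genes were mixed in different shares in each class. Of the ligand counts of FAPs at day 2, 27.6% were Tgfb1 (23.7% to 31.9%), 65.7% Tgfb2 and 6.69% Tgfb3. At day 7 they were 16.7% Tgfb1, 54.5% Tgfb2 and 28.8% Tgfb3 (26.8% to 30.9%). Tgfb2 was thus the most frequent ligand transcript of FAPs at both days, and the share of Tgfb3 was higher at day 7. Myogenic cells at day 7 had 66.1% Tgfb2, and tenocytes had 43.1% Tgfb3 (36.3% to 50.1%) of 209 ligand counts. Tgfb1 made up 99.6% of the ligand counts of monocytes and macrophages at day 2 and 99.1% at day 7, and 92.9% and 91.4% of those of endothelial cells. Smooth muscle and pericytes, at 81.8% and 78.4% Tgfb1, lay between. Without the cells holding endothelial markers Tgfb1 was 4 of 8 ligand counts at day 2 and 20% at day 7 (9.05% to 35.6%, of 40 counts).

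**Figure D2:**
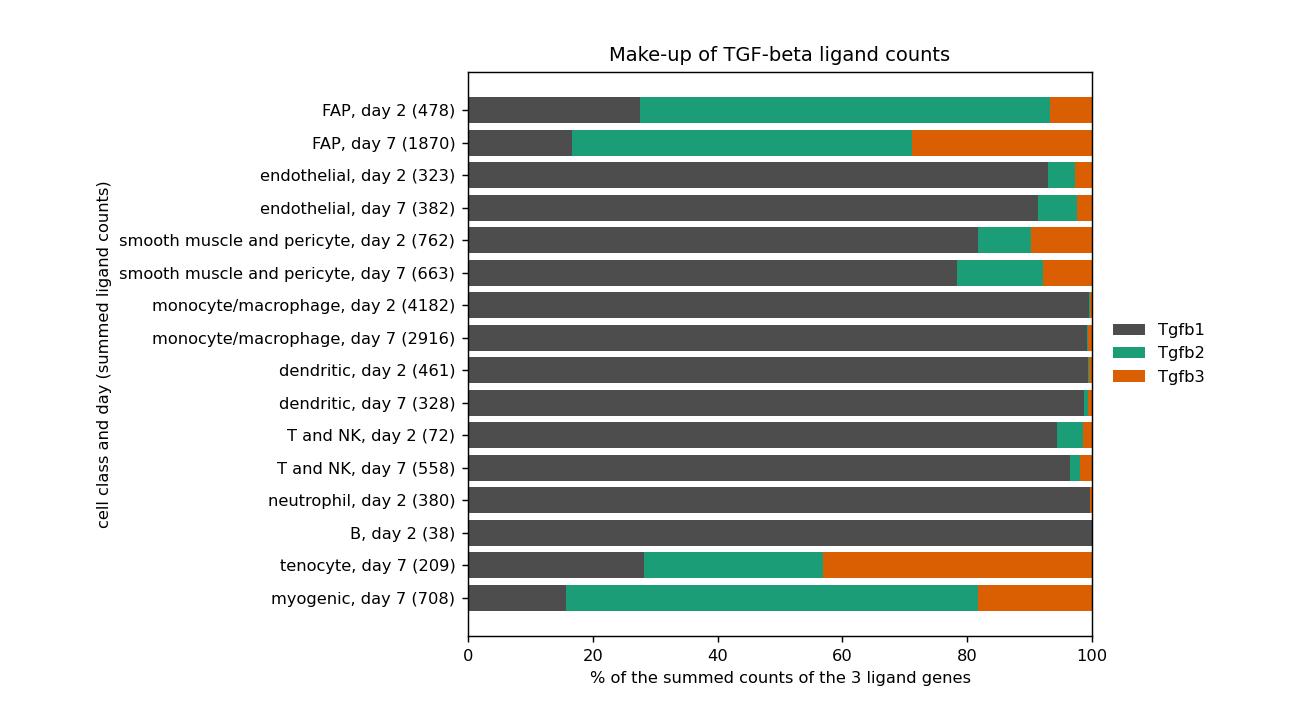
Make-up of the summed counts of Tgfb1, Tgfb2 and Tgfb3 in percent, for each cell class and day with at least 30 ligand counts, with the number of ligand counts in parentheses. Tgfb2 and Tgfb3 together were most of the ligand counts in FAPs, tenocytes and myogenic cells, and Tgfb1 was 99.1% or more in monocytes and macrophages.

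The receptor genes differed in where they were found. Tgfbr1, the type I receptor kinase, was highest under the label Neutrophils at day 2, at 232 CPM (211 to 254), 1.77-fold above the label B Cells (1.02 to 3.35). The latter label held more neutrophil than B cell marker counts, and the part of this in the ratio was not tested. Neutrophils were 22.3% of the cells and 5.72% of all counts at day 2 and held 24.7% of the Tgfbr1 counts (22.7% to 26.7%). Neutrophils were 10 cells at day 7.

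Monocytes and macrophages had Tgfbr1 at 38.4 CPM (35.5 to 41.5) at day 2 and 137 CPM (128 to 145) at day 7 (log2 ratio 1.83, 1.69 to 1.98). Each of the 6 labels in this class had more Tgfbr1 at day 7, by a log2 ratio from 0.69 in inflammatory monocytes (0.14 to 1.22) to 2.43 in Cxcl10+ monocytes (1.60 to 3.37). With each cell thinned to 2000 counts, 7.21% of the cells of the class held a Tgfbr1 count at day 2 and 23.8% at day 7, against 34.1% and 57.9% with all counts. Dendritic cells had 17.7 and 68.3 CPM (log2 ratio 1.95, 1.36 to 2.56). In endothelial cells the direction was opposite, 62.7 CPM at day 2 against 25.6 CPM at day 7 (log2 ratio -1.29, -1.81 to -0.79), with the same sign in capillary (-1.42) and stem (-1.10) endothelial cells. FAPs stood at 54.2 and 53.6 CPM (log2 ratio -0.01, -0.23 to 0.21). Myeloid and endothelial cells thus had opposite signs for this receptor, and the difference was not tested.

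Tgfbr2, the type II receptor that binds the ligand, was led by stem FAPs at both days, at 179 CPM (156 to 204) and 501 CPM (446 to 560). At day 7 the interval of the ratio of stem FAPs to the next label, adipogenic FAPs at 299 CPM, lay above 1 (1.67, 1.45 to 1.93), whereas at day 2 that to NK cells held 1. Over all FAPs the level was 114 CPM at day 2 and 280 CPM at day 7 (log2 ratio 1.30, 1.16 to 1.43). Monocytes and macrophages were at 60.4 and 109 CPM (log2 ratio 0.86, 0.72 to 0.99), under 2-fold from summed counts and over it (1.16) from the mean over cells. Of the 6 labels of this class 4 were past 2-fold, with log2 ratios from 1.09 in Cx3cr1_lo M2 macrophages to 1.74 in Cxcl10+ monocytes (0.88 to 2.68), and M1 macrophages (0.79) and patrolling monocytes (0.64) were not. Endothelial cells (0.35, 0.08 to 0.63) and smooth muscle and pericytes (0.32, 0.12 to 0.53) had smaller ratios. In T and NK cells (110 and 84.6 CPM) and dendritic cells (30.7 and 43.3 CPM) the intervals held 0.

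Tgfbr3, or betaglycan, a co-receptor that presents ligand and binds TGF-beta2, had its highest levels at day 7 in venous endothelium, the FAP labels and tenocytes, with neural cells at 117 CPM and MuSCs at 112 CPM next. Smooth muscle and pericytes, at 36.0 and 80.5 CPM, were close to endothelial cells. FAPs were at 193 CPM (181 to 206) at day 2 and 157 CPM (148 to 166) at day 7 (log2 ratio -0.30, -0.42 to -0.18), and they were the sole compared class with a lower level at day 7 among the 4 that passed the count minimum. Endothelial cells were at 36.3 and 88.2 CPM (log2 ratio 1.28, 0.89 to 1.68), and venous endothelial cells at day 7 reached 227 CPM (159 to 315, 21 cells), level with stem FAPs at 223 CPM. Monocytes and macrophages held 7 counts at day 2 and 10 at day 7. In T and NK cells the 2 counts at day 2 and 44 at day 7 gave a log2 ratio of 1.92 whose interval held 0 (-0.02 to 5.01), and of 0.06 from the mean over cells. Without the cells holding basophil and mast cell markers it was 2.59 (1 and 44 counts, 0.04 to 7.92). The part of the endothelial markers of this class in the value was not tested. The annotated genes Gm43422, Gm43423 and Gm42900 lie within Tgfbr3 on its strand, and Gm6276 within Ltbp1, so reads could be shared with them.

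**Figure D3:**
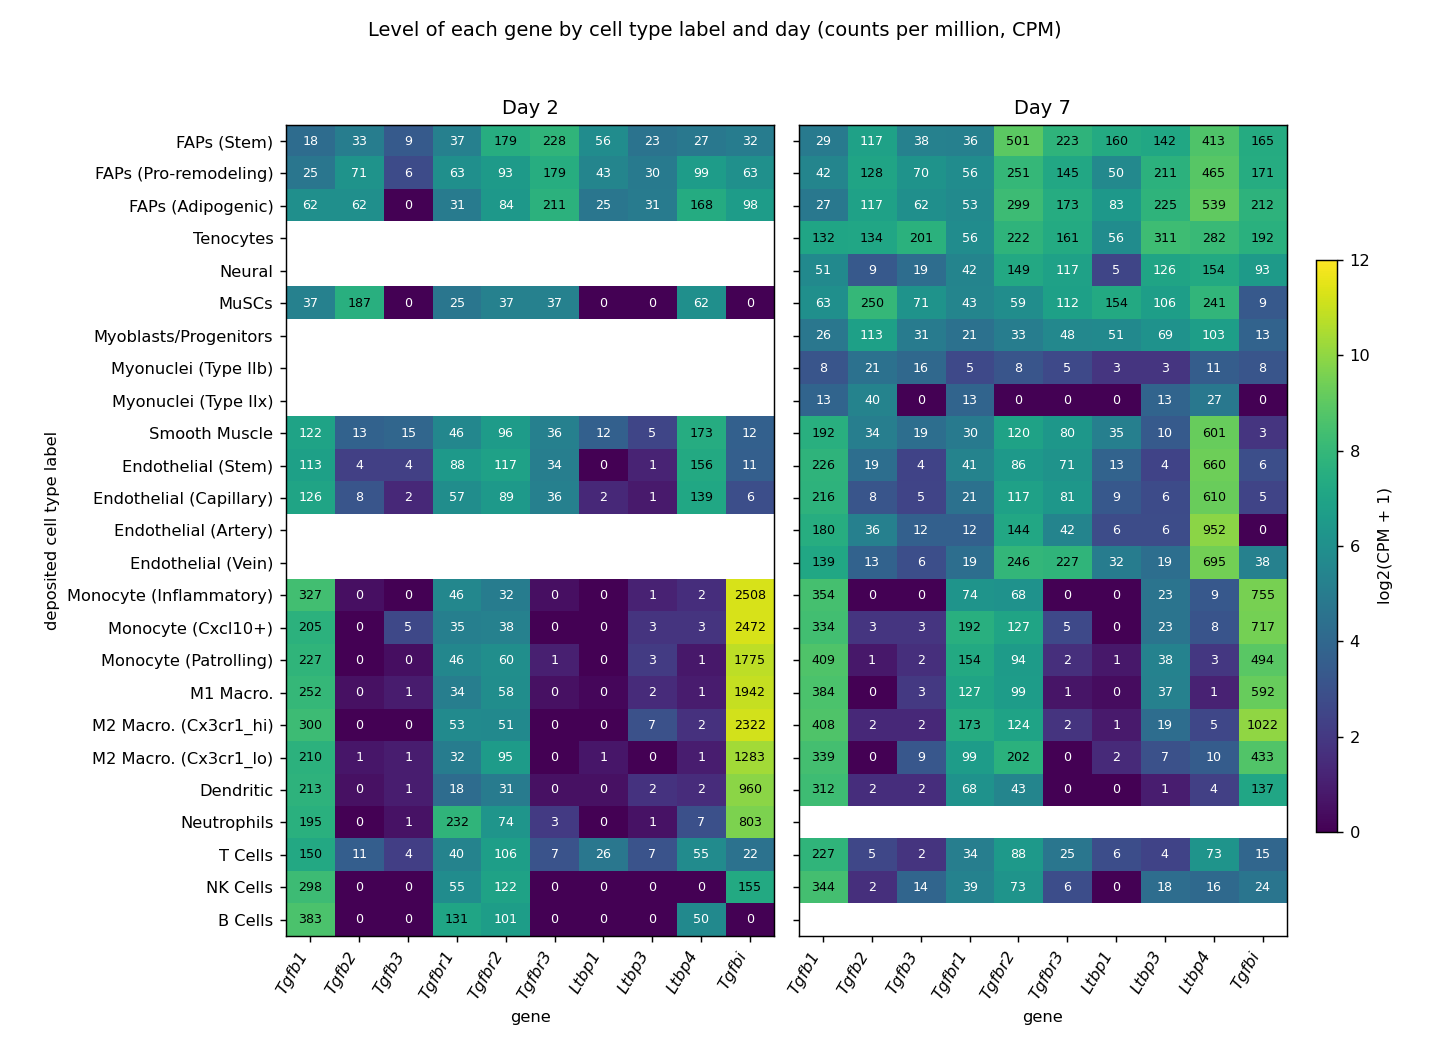
Level of the 10 genes under each deposited cell type label with at least 20 kept cells, at day 2 (left) and day 7 (right). Colours give log2(CPM + 1), printed numbers give CPM and white rows mark labels with fewer cells. Tgfb1 and Tgfbi were highest in leukocytes at both days. At day 7 Ltbp4 was highest in arterial endothelial cells (952 CPM) and Ltbp3 and Tgfb3 in tenocytes, which had too few cells to be shown at day 2.

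RNA of the latency proteins was mostly found in stromal and myogenic cells, and that of Ltbp4 also in endothelial cells. Neural cells held Ltbp3 as well, at 228 CPM at day 2 (9 cells) and 126 CPM at day 7 (41 cells). Ltbp1 was at 55.9 CPM (43.7 to 70.5) in stem FAPs at day 2 and 160 CPM (130 to 195) at day 7, when MuSCs were at 154 CPM (128 to 185) with an interval of the ratio that held 1. Stem FAPs (log2 ratio 1.52, 1.06 to 1.98) and adipogenic FAPs (25.3 and 82.6 CPM, log2 ratio 1.71, 0.74 to 2.87) were thus past 2-fold, whereas pro-remodeling FAPs were at 42.8 and 49.7 CPM with an interval that held 0 (0.22, -0.07 to 0.51). The class as a whole had a log2 ratio of 0.53 (0.30 to 0.76), under 2-fold. Smooth muscle and pericytes had 11.9 and 35.4 CPM (log2 ratio 1.57, 1.09 to 2.06). In endothelial cells, 2 counts at day 2 and 20 at day 7 gave a log2 ratio of 3.85 with a wide interval (1.81 to 6.99), and 4.50% of the cells held a count at day 7.

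Ltbp3 had the second largest log2 ratio of any member in FAPs, 2.87 (2.63 to 3.13), from 28.4 CPM (24.0 to 33.4) at day 2 to 209 CPM (199 to 219) at day 7. The intervals of the 3 FAP labels overlapped, at log2 ratios of 2.64 in stem, 2.80 in pro-remodeling and 2.87 in adipogenic FAPs. With cells thinned to 2000 counts, 7.51% of FAPs held a count at day 2 and 34.3% at day 7. Without thinning the shares were 45.6% and 75.0%, at median depths of 24329 and 8429 counts per cell. Tenocytes at day 7 had the highest level, 311 CPM (262 to 367), above adipogenic FAPs at 225 CPM (ratio 1.38, 1.13 to 1.68). Endothelial cells held 2 and 11 counts in all.

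Monocytes and macrophages also held Ltbp3, at 1.88 CPM (31 counts) at day 2 and 30.3 CPM (228 counts) at day 7 (log2 ratio 4.01, 3.47 to 4.60). M1 macrophages and patrolling monocytes had the highest levels of the class at day 7, 37.1 CPM and 38.4 CPM, and Cx3cr1_lo M2 macrophages 6.92 CPM (1.89 to 17.7). Free RNA moved the same way, at 5.24 and 70.9 CPM of Ltbp3, and the log2 ratio with values corrected for free RNA by SoupX was 4.02. The part of free RNA in the Ltbp3 value was not tested further. For Ltbp4 in the same class, the log2 ratio of 1.69 (19 and 28 counts) turned to -3.97 with SoupX values.

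Ltbp4, which binds the TGF-beta1 complex and elastic fibres, was shared by FAPs and vessels. FAPs were at 86.1 CPM (78.3 to 94.5) at day 2 and 476 CPM (461 to 492) at day 7 (log2 ratio 2.47, 2.33 to 2.61). Endothelial cells were at 163 and 666 CPM (log2 ratio 2.03, 1.86 to 2.20), and 51.5% and 86.8% of them held a count. Arterial endothelial cells at day 7 had the highest level of any label, 952 CPM (810 to 1112, 26 cells), 1.37-fold above venous cells (1.07 to 1.76). At day 2 the first 4 labels, smooth muscle, adipogenic FAPs and stem and capillary endothelium, lay between 139 and 173 CPM, and neighbours among them did not differ beyond their intervals. Stem FAPs had the lowest FAP level at day 2, 26.8 CPM (18.5 to 37.4), against 413 CPM (363 to 467) at day 7, with a larger log2 ratio (3.95, 3.43 to 4.51) than pro-remodeling (2.23, 2.07 to 2.39) or adipogenic FAPs (1.68, 1.30 to 2.08).

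Cells labelled Smooth Muscle were at 173 CPM of Ltbp4 at day 2 and 601 CPM at day 7 (log2 ratio 1.80, 1.68 to 1.92). The 17 and 36 of them with fewer than 3 endothelial marker counts were at 92.6 CPM (7 counts, 37.2 to 191) and 214 CPM (33 counts, 148 to 301), with a log2 ratio of 1.21. The interval at day 2 held the level of the whole label, and that at day 7 lay below it. These cells were shallow, with 75591 and 153993 counts in all, and 8 of the 10 members had fewer than 20 counts in them over both days. Tgfb2 held 1 and 16 counts, Tgfbr1 3 and 3, Tgfbr2 4 and 11, Tgfbr3 3 and 8, Ltbp1 4 and 20, Ltbp3 0 and 9 and Tgfbi 0 and 3. The log2 ratio of Tgfbr3 was 1.16 with all cells of the label and 0.39 in these (-1.67 to 2.94). In the same cells Tgfb1 was at 52.9 CPM (4 counts, 14.4 to 135) and 52.0 CPM (8 counts, 22.4 to 102), against 122 and 192 CPM with all cells of the label, and again only the interval at day 7 lay below the level of the label. The part of endothelial RNA in these levels was not tested.

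Tgfbi, a secreted matrix protein that binds integrins and collagens, was first named for its induction by TGF-beta. Its highest levels at day 2 were in inflammatory monocytes, at 2508 CPM (2446 to 2570), and Cxcl10+ monocytes, at 2472 CPM, whose ratio interval held 1. At day 7 Cx3cr1_hi M2 macrophages led with 1022 CPM (966 to 1080), above inflammatory monocytes at 755 CPM (ratio 1.35, 1.21 to 1.52). All 6 labels of monocytes and macrophages were lower at day 7, with log2 ratios from -1.85 in patrolling monocytes to -1.18 in Cx3cr1_hi M2 macrophages. The class as a whole had 1907 CPM at day 2 and 650 CPM at day 7 (log2 ratio -1.55, -1.60 to -1.51). With cells thinned to 2000 counts, 87.2% and 58.6% of its cells held a count. Dendritic cells had 960 and 137 CPM (log2 ratio -2.81, -3.07 to -2.57).

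FAPs had the opposite sign for Tgfbi, with 57.9 CPM (51.5 to 64.8) at day 2 and 179 CPM (170 to 188) at day 7 (log2 ratio 1.63, 1.45 to 1.81). All 3 FAP labels were higher at day 7, from 1.11 in adipogenic (0.61 to 1.65) to 2.35 in stem FAPs (1.81 to 2.91), and the SoupX values gave 1.90 for the class. Free RNA, at 382 and 148 CPM, moved the other way. FAPs held 21.7% of the Tgfbi counts at day 7. In smooth muscle and pericytes the log2 ratio was -2.18 (60 and 7 counts), at levels of 11.7 and 2.58 CPM far below free RNA, and 0 and 3 counts remained without the cells holding endothelial markers. In T and NK cells it was -1.70 (20 and 36 counts) and -0.26 without the cell with the most counts, and -1.87 without the cells holding basophil and mast cell markers. The difference in sign between FAPs and myeloid cells was not tested.

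**Figure D4:**
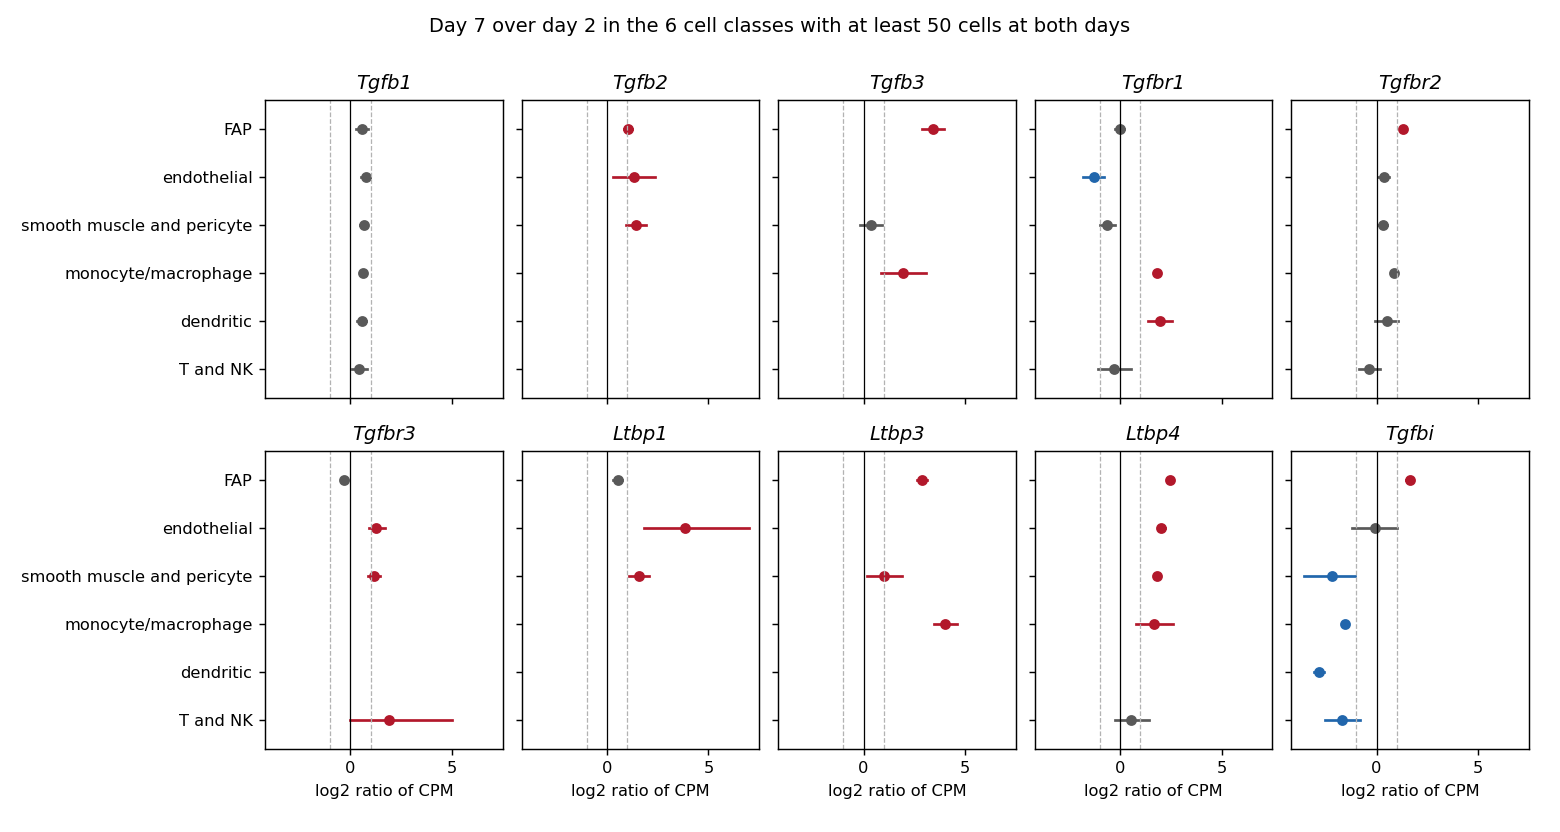
Log2 ratio of CPM at day 7 to day 2 for each gene in the 6 cell classes, with 95% intervals of counting error, for pairs with at least 20 counts over both days. Dashed lines mark 2-fold, red points are at least 2-fold higher at day 7, blue points at least 2-fold lower and grey points between. Tgfb1 lay between 0.44 and 0.75 in all 6 classes, and Tgfbi had opposite signs in FAPs (1.63) and monocytes and macrophages (-1.55).

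Of 60 pairs of a member and a class, 45 reached 20 counts over both days. Among these, 21 were at least 2-fold higher at day 7, 5 at least 2-fold lower and 19 within 2-fold. In FAPs, 6 of 10 members were at least 2-fold higher and 0 lower, against 25.6% higher and 14% lower of 11851 genes with as many counts in that class. In monocytes and macrophages 4 of the 7 members with enough counts were higher and 1 lower (19.3% and 12.8% of all genes). In endothelial cells it was 4 higher and 1 lower of 8 (14.9% and 9.5%), and in smooth muscle and pericytes 5 higher and 1 lower of 10 (14.1% and 7.86%). In the cells of the latter with fewer than 3 endothelial marker counts, the 2 members that still had 20 counts, Ltbp1 and Ltbp4, were both higher (14.4% higher and 15.3% lower of 1950 genes), and the other 8 were under the minimum. In dendritic cells 1 of 4 was higher and 1 lower (13.6% and 8.44%), and in T and NK cells 1 of 6 was higher and 1 lower (13.7% and 8.22%). Without the cells holding basophil and mast cell markers it was also 1 of 6 higher and 1 lower (12.6% and 8.23% of 8812 genes). The median log2 ratio of the members with enough counts was 1.16 in FAPs, against 0.21 over all genes, and 1.69 against -0.02 in monocytes and macrophages. The latter median is the value of Ltbp4, 1 of the 4 higher members, and was 1.34 without Ltbp4 and 0.85 with SoupX values. With SoupX values the log2 ratio of Ltbp4 was -3.97, so it was no longer higher. The median was 1.02 against 0.06 in endothelial cells, 0.84 against 0.10 in smooth muscle and pericytes, 0.52 against 0.05 in dendritic cells and 0.06 against 0.04 in T and NK cells.

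The rest of the pathway was described by 3 lists, chosen with earlier results of these data known, so their shares beside those of all genes are descriptions. Of 13 genes for latency, release and storage of the ligand, 12 had enough counts in FAPs, and 3 of these were at least 2-fold higher at day 7 and 1 lower, against 25.6% and 14% of all genes. Their median log2 ratio was 0.12, against 0.21 over all genes. Fbn2, a microfibril protein, had 1 count at day 2 and 135 counts at day 7, and Itgb3, an integrin subunit, was at 22.5 CPM at day 7 (log2 ratio 1.99). Thbs1, or thrombospondin-1, an activator of latent TGF-beta, was at least 2-fold lower at day 7 in all 6 classes. It was at 628 and 165 CPM in FAPs (log2 ratio -1.93, -2.02 to -1.84) and at 2868 and 71.8 CPM in monocytes and macrophages (log2 ratio -5.32, -5.45 to -5.20). The sum of the platelet markers, which was nearly all Pf4, was lower in the same cells, at 4374 and 354 CPM. Its part in the Thbs1 value was not tested. In endothelial cells the log2 ratio of Thbs1 was -2.54, in smooth muscle and pericytes -2.30, and dendritic cells held 232 and 1 counts. Lrrc32, or GARP, which holds latent TGF-beta at the cell surface, was lower at day 7 in endothelial cells (148 and 57.8 CPM, log2 ratio -1.35) and in smooth muscle and pericytes (183 and 67.5 CPM, log2 ratio -1.44). In the latter without the cells holding endothelial markers it was -0.20 (9 and 16 counts, -1.46 to 1.16), and that of Thbs1 was -1.55 (-2.57 to -0.57). Lrrc32 was higher in monocytes and macrophages, where it reached 9.18 CPM (log2 ratio 2.15). Emilin1, an inhibitor of TGF-beta processing, was higher in endothelial cells (14.4 and 59.6 CPM, log2 ratio 2.05), and Furin, a protease that cleaves the precursor, lower in T and NK cells (590 and 88.8 CPM, log2 ratio -2.73). Basophil and mast cell markers in the same cells were at 1526 and 0.472 CPM, and without the cells holding them Furin was at 193 and 88.8 CPM (log2 ratio -1.12, -1.56 to -0.67). Itgb5, which encodes a subunit of the alpha-v beta-5 integrin, was higher in monocytes and macrophages (104 and 251 CPM, log2 ratio 1.26). In the same list 2 of 9 genes were higher and 4 lower in endothelial cells (14.9% and 9.5% of all genes), 0 and 3 of 9 in smooth muscle and pericytes (14.1% and 7.86%), 3 and 1 of 8 in monocytes and macrophages (19.3% and 12.8%), 0 and 1 of 5 in dendritic cells (13.6% and 8.44%), and 3 and 4 of 9 in T and NK cells (13.7% and 8.22%).

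Of 14 genes of signal transduction and co-receptors, 2 were at least 2-fold higher and 3 lower in FAPs (25.6% and 14% of all genes), with a median log2 ratio of -0.16 against 0.21 over all genes. Pmepa1, a SMAD-interacting feedback inhibitor, had 199 CPM at day 2 and 531 CPM at day 7 (log2 ratio 1.41) and was also higher in monocytes and macrophages (1.57) and dendritic cells (1.08). Ski, a SMAD co-repressor, had a log2 ratio of 1.07 in FAPs. Smad7, the inhibitory SMAD, was lower in FAPs at day 7 (247 and 55.8 CPM, log2 ratio -2.15) and higher in dendritic cells (49.4 and 122 CPM, log2 ratio 1.31). Bambi, a decoy receptor, was lower in FAPs (31.6 and 9.69 CPM, log2 ratio -1.70). The feedback inhibitors thus had different signs in the same cells. Outside FAPs, Smad3 was lower (log2 ratio -1.02) and Eng, a co-receptor, higher (1.56) in monocytes and macrophages, and Tgif1, a co-repressor, lower in endothelial cells (-1.18). In smooth muscle and pericytes 0 of 14 passed 2-fold in either direction (14.1% and 7.86% of all genes). The counts were 0 higher and 1 lower of 13 in endothelial cells (14.9% and 9.5% of all genes), 3 and 1 of 14 in monocytes and macrophages (19.3% and 12.8%), 2 and 1 of 13 in dendritic cells (13.6% and 8.44%), and 1 and 0 of 13 in T and NK cells (13.7% and 8.22%).

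Of 13 genes known as targets of TGF-beta, 7 were at least 2-fold higher at day 7 in FAPs and 2 lower (25.6% and 14% of all genes), with a median log2 ratio of 2.65 against 0.21 over all genes. This list too was chosen with earlier results of these data known, so these counts are descriptions and test nothing. Cilp and Postn, which encode matrix proteins, were at 2.73 and 1791 CPM and at 11.5 and 2828 CPM (log2 ratios 9.36 and 7.94). Timp1, an inhibitor of metalloproteinases, and Tagln, an actin-binding protein of contractile cells, were lower at day 7, at 3173 and 215 CPM (log2 ratio -3.89) and at 18.5 and 5.52 CPM (log2 ratio -1.74). The target genes thus had opposite signs within FAPs. Of the targets with enough counts, 4 of 9 were higher and 3 lower in endothelial cells (14.9% and 9.5% of all genes), 6 and 1 of 11 in smooth muscle and pericytes (14.1% and 7.86%), 5 and 3 of 10 in monocytes and macrophages (19.3% and 12.8%), 3 and 2 of 5 in dendritic cells (13.6% and 8.44%) and 4 and 4 of 10 in T and NK cells (13.7% and 8.22%). Ccn2, a matricellular protein, was lower in endothelial cells (log2 ratio -2.24). Timp1 was lower in smooth muscle and pericytes (-2.28), monocytes and macrophages (-6.21) and dendritic cells (1053 and 1 counts), and Fn1, or fibronectin, in the last 2 classes (-3.27 and -4.09). Some other targets were higher outside FAPs, namely Col3a1 in endothelial cells (5.02), smooth muscle and pericytes (2.37) and T and NK cells (3 and 263 counts), Col1a1 in endothelial cells (3.96) and monocytes and macrophages (4.77), Col1a2 in T and NK cells (2 and 117 counts), and Postn in smooth muscle and pericytes (1.57) and monocytes and macrophages (3 and 108 counts). Free RNA moved with them, from 134 to 4055 CPM for Col3a1 and from 68.4 to 2470 CPM for Col1a1, against 1.52 and 41.4 CPM of Col1a1 in monocytes and macrophages. The part of free RNA in these values was not tested. Without the cells holding basophil and mast cell markers, T and NK cells had 2 higher and 3 lower of 9 genes for latency, release and storage, 1 and 0 of 13 for signal transduction and 3 and 4 of 10 targets (12.6% and 8.23% of all genes). Without the cells holding endothelial markers, smooth muscle and pericytes had 0 higher and 1 lower of 6, 1 and 2 of 5, and 6 and 0 of 6 in the same lists (14.4% and 15.3% of all genes), with the other genes under 20 counts. The 6 targets include Acta2, at 781 and 11533 CPM in these cells, and Tagln, at 317 and 7578 CPM. Whether the cells left at each day were of the same kind was not tested.

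**Figure D5:**
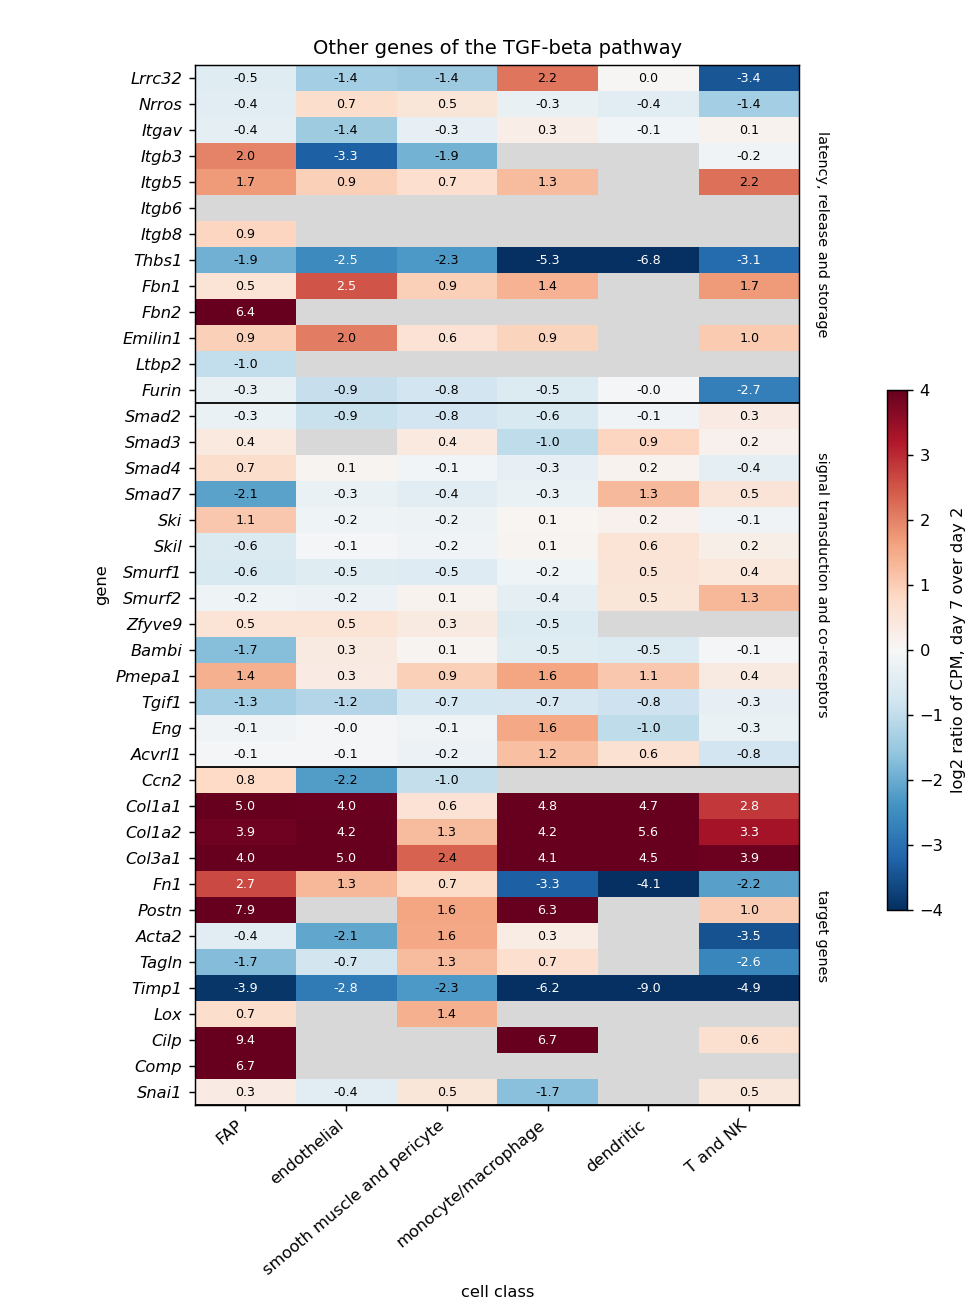
Log2 ratio of CPM at day 7 to day 2 for 40 other genes of the TGF-beta pathway, in 3 lists, in the 6 cell classes. Red is higher at day 7, blue lower, and grey cells had fewer than 20 counts over both days. Thbs1 was lower in all 6 classes, and in FAPs Timp1 (-3.89) and Postn (7.94) had opposite signs.

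The genes whose pattern was most like that of each member were sought over 35 sums of a label and a day with at least 30 cells, among 11257 genes, by Pearson's r of log2(CPM + 10). These values are descriptions, since the sums share libraries and depth. Tgfb2 came closest to Rgma (r = 0.97), Plekhh2 (0.96) and Sspn (0.95), and Ltbp1 came closest to Tgfb2 itself (0.95), then Sulf1 and Pcdh18 (0.94 each). Tgfbr3 was most like Cdr2l (0.98), Lix1l (0.97) and Mpdz (0.97), and Ltbp4 most like Hspg2 (0.96), which encodes perlecan, Ppic (0.96) and Phldb2 (0.95). Ltbp3 came closest to Clip3 (0.91), Postn (0.91) and Zfp354c (0.90), and Tgfb3 to Fibin (0.91), Serf1 and Pdgfrl (0.90 each). Tgfb1 was most like Tmsb4x (0.92), Crlf2 (0.90) and Hpcal1 (0.89), and Tgfbi most like Rab7b (0.94), Gabarap and Pid1 (0.92 each). The receptors Tgfbr1 (Gadd45b 0.78, Atf3 0.77, Pnpla7 0.76) and Tgfbr2 (Tmem159 0.83, Nucb1 0.83, Slc38a10 0.81) had no gene as close. Between the ligands Tgfb1 and Tgfb2 the r over the same sums was -0.75.

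On GRCm38, Tgfb1 and Ltbp4 lie on chromosome 7 at 25687002 to 25705077 and 27305136 to 27337692. Tgfb2 is on chromosome 1 (186622792 to 186705989), Tgfb3 on 12 (86056745 to 86079041) and Tgfbi on 13 (56609523 to 56639562). Tgfbr1 is on chromosome 4 (47353222 to 47414931), Tgfbr2 on 9 (116084293 to 116175360) and Tgfbr3 on 5 (107106570 to 107289629). Ltbp1 is on chromosome 17 (75005568 to 75392512) and Ltbp3 on 19 (5740904 to 5758532). Ltbp4 had a further identifier in the tables, with 0 counts.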

How the data were processed

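For each library the deposited files hold raw UMI counts, aligned to mm10, of every barcode and of those called as cells. The file headers give Cell Ranger 3.0.1, the submitters' processing notes 3.1.0. The authors also deposited SoupX values, estimated counts that need not be whole, and a table of cell type labels made on a larger collection after doublet removal; no doublet caller was run here. Cells were kept when labelled and holding at least 750 genes, 1000 transcripts and at most 30% mitochondrial transcripts in the SoupX values, which removed 329 and 195 barcodes. Of 27998 gene identifiers, 27645 matched GENCODE.

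Uncorrected counts were summed per label or class and library (Python 3.11.15, numpy 2.4.6, scipy 1.17.1) and divided by their total. Poisson, Clopper-Pearson and conditional binomial intervals are exact. A gene was called past 2-fold at a CPM ratio of at least 2 or at most 0.5 with at least 20 counts over both days. A count of 0 was replaced by 3 counts in ratios. The intervals and the 2-fold rule were checked on simulated counts. The members, the 3 pathway lists and the marker lists were chosen with earlier results of these data known. From each pathway list the text names, per class, up to 2 genes from either end of the ranking by ratio among those past 2-fold with at least 100 counts and an interval beyond 1, and for each member the 3 most similar genes among those with at least 200 counts. A gene of the target list is not reported here and was left out of its counts. Alternatives were SoupX values, the mean over cells, median-of-ratios scaling, other limits on cells, no count minimum, a fold of 1.5, leaving out the highest cell and, added after seeing the data, leaving out cells with markers of another type.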

Additional observations from a re-analysis of the deposited data

Results flagged for a closer look

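Tgfbr1 had opposite signs between classes under the same contrast of days. Its log2 ratio of day 7 to day 2 was 1.83 in monocytes and macrophages and 1.95 in dendritic cells, against -1.29 in endothelial cells. With 1 library per day the difference between classes was not tested.

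Tgfbi also had opposite signs between classes. Its log2 ratio was 1.63 in FAPs, against -1.55 in monocytes and macrophages, -2.81 in dendritic cells, -2.18 in smooth muscle and pericytes and -1.70 in T and NK cells. This difference was not tested either. The value in T and NK cells was -0.26 without the cell with the most counts, and that in smooth muscle and pericytes rested on 60 and 7 counts, of which 0 and 3 remained without the cells holding endothelial markers.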

How the results depend on the processing

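With values corrected for free RNA by SoupX, the log2 ratio of Ltbp4 in monocytes and macrophages turned from 1.69 to -3.97. The number of members past 2-fold in dendritic cells was 2 and, with no minimum count, 8. That in T and NK cells was 2 and, by the mean over cells, 1. That in smooth muscle and pericytes was 6 and, without cells holding endothelial marker counts, 2, an alternative chosen after seeing the data. The causes were not tested, except that in the last 8 of the 10 members fell under the minimum of 20 counts. All other counts of members, higher and lower together, stayed within 1.5 times under the alternatives run, but without the highest cell the split in T and NK cells went from 1 higher and 1 lower to 2 and 0. The split in monocytes and macrophages also changed with SoupX values, as Ltbp4 was no longer among the higher members. Of the 45 log2 ratios, SoupX values moved 2 besides that of Ltbp4, both of Tgfbi, to 1.90 in FAPs and from -0.09 to 1.28 in endothelial cells (20 and 13 counts). The other alternatives moved 5 by the mean over cells, 5 by median-of-ratios scaling, 1 without the highest cell and 0 with other limits on cells by more than their counting interval. Leaving out T cells with basophil and mast cell markers, also chosen after seeing the data, moved 0 of 6, and leaving out smooth muscle and pericyte cells with endothelial marker counts moved 7 of 10. Moves were judged by the interval with all cells counted. For each of these 7 the wider interval of the cells left held the value with all cells. That of Tgfbr3 was -1.67 to 2.94, against 1.16, so a shift beyond counting error cannot be read from them. Levels near the limit of 3 counts were not ranked. No paired analysis was possible because each day has 1 library and its replicate number is a name only.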
